A study of Homo sapiens with 14 samples.

Results

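CYP24A1 encodes a mitochondrial cytochrome P450 enzyme that breaks down calcitriol, the active form of vitamin D, and its precursor. It is best known from the kidney tubule, where the vitamin D receptor (VDR) induces it and so limits the hormone. A circular RNA (circRNA) forms when the splicing machinery joins the end of an exon back to the start of an exon further upstream, and it is counted by reads that cross this back-splice junction. The CYP24A1 circRNAs described here are the entries of 6 deposited tables whose start and end both lie inside the RefSeq span of the gene (hg38, chromosome 20, 54143538 to 54173986, on assembly GRCh38.p14). There were 2 such circRNAs among the 11227 that the tables list. The gene was chosen by the read counts and fraction levels of its main circRNA in these tables, so its levels and fold changes are described without a test.

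The circRNAs came from HepG2, a human liver tumour cell line, and the groups are the fractions from which total RNA was taken. The fractions were nucleus, ribosome, cytosol, cytoplasm, exosomes and whole cells with 2 libraries each, and the 2 mitochondrial samples were not analysed here. Ribosomal RNA was removed from all samples except the exosomal ones, per the labels' protocols. Whether the 2 libraries of a fraction came from separate cultures is not stated in the labels, so the spread between them may be technical. No treatment is named in the labels, and every fraction is from the same line.

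The main circRNA runs from 54157169 to 54171670 and spans 14502 bases of genome, 47.6% of the gene span. The second runs from 54154643 to the same end and is 2526 bases longer, at 17028 bases. No other circRNA in the tables used the shared end or the start of the main circRNA. The end lies 2316 bases inside the upper edge of the gene span, and the start of the main circRNA 13631 bases inside the lower edge. Of 950 circRNAs tested between fractions, 23.5% had a longer genomic span than the main circRNA, and their median was 5070 bases. Exons and spliced length were not analysed here. The tables give no strand.

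**Figure D1:**
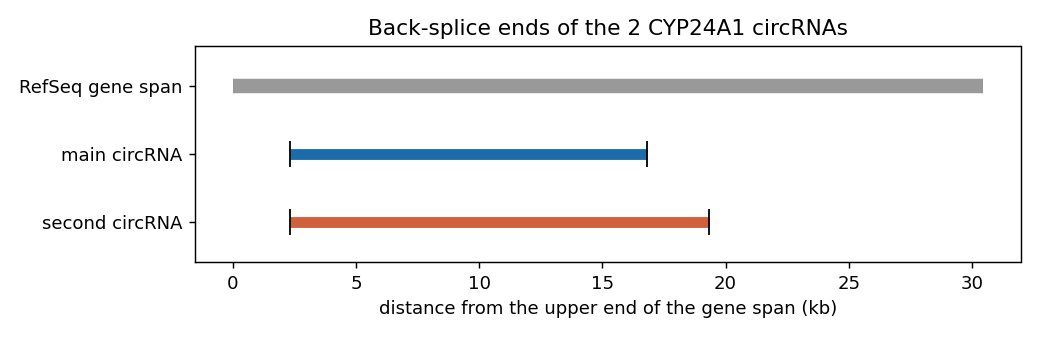
Positions of the 2 CYP24A1 circRNAs within the RefSeq span of the gene, as distance in kilobases from its upper end. Both bars begin at the same back-splice end, 2316 bases inside the gene, and the second circRNA reaches 2526 bases further than the main one.

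The main circRNA was listed in all 6 tables by both circRNA callers, which the tables head Ciri and CIRC. Only 183 of the 11227 circRNAs were listed in all 6. Over the 12 libraries Ciri counted 1129 reads across its junction and CIRC 1114, and the ratio of CIRC to Ciri reads in a library lay between 0.818 and 1.03. The second circRNA was listed by Ciri alone, with 4 and 2 reads in the cytoplasm and 2 and 3 in whole cells, and in no other table. It held so few reads that the main circRNA took 99.1% of the CYP24A1 reads counted by Ciri in the cytoplasm (Wilson 95% interval 98.0 to 99.6) and 98.6% in cells (96.7 to 99.4). At the ratio seen in cells, the nucleus, ribosomal fraction, cytosol and exosomes would hold 0.768, 0.507, 0.623 and 0.246 reads of the second circRNA. A table lists an entry only where both libraries have at least 1 read, so at that ratio the second circRNA would go unlisted in those fractions at this depth. Whether the ratio of cells holds in them was not tested. In the cytoplasm the same ratio gave 9.22 reads, and 6 were counted.

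CYP24A1 had fewer kinds of circRNA than the median of the host genes above a floor of level, which were not matched to it in level. It had 2 in the cytoplasm, against a median of 6 in the 89 host genes with a summed level of at least 10 RPTM (reads per 10000000 library reads). Its leading circRNA held 99.1% of the gene's circRNA level, against a median of 67.8% in these genes (quartiles 37.2 and 90.8). A larger share was held in 5 of the 89 genes, and 12 of them had 2 circRNAs or fewer. By summed level CYP24A1 ranked 10 of 3014 host genes in the cytoplasm.

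Levels of the main circRNA differed widely between fractions. The nuclear libraries had 2.42 and 4.06 RPTM, from 21 and 32 reads. The ribosomal libraries had 1.86 and 2.19 RPTM, from means over the callers of 18 and 15.5 reads. The cytosolic libraries had 3.02 and 1.34 RPTM, from 28.5 and 14 reads, and the first lay above the second in both callers. Cytoplasm and whole cells stood far above these fractions.

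The cytoplasmic libraries had 34.3 and 36.1 RPTM, from 355 and 282.5 reads. The exosomal libraries had 1.52 and 0.548 RPTM, from 10 and 5.5 reads, the fewest of any fraction. The whole-cell libraries had 18.9 and 21.0 RPTM, from 177.5 and 162 reads. Each level is relative to the reads of its library, so a smaller number of cells with the circRNA and less of it per cell cannot be told apart.

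From high to low, cytoplasm (35.2 ± 1.25 RPTM, SD, n = 2 here and below) was followed by cells (19.98 ± 1.47), nucleus (3.24 ± 1.16), cytosol (2.18 ± 1.18), ribosomal fraction (2.02 ± 0.233) and exosomes (1.04 ± 0.690). The libraries of cytoplasm and cells did not overlap, nor did those of cells and nucleus. Nucleus and cytosol overlapped, as did cytosol and ribosomal fraction, so these neighbours did not differ beyond the spread of their libraries. Exosomes lay below the ribosomal fraction without overlap but overlapped the cytosol.

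**Figure D2:**
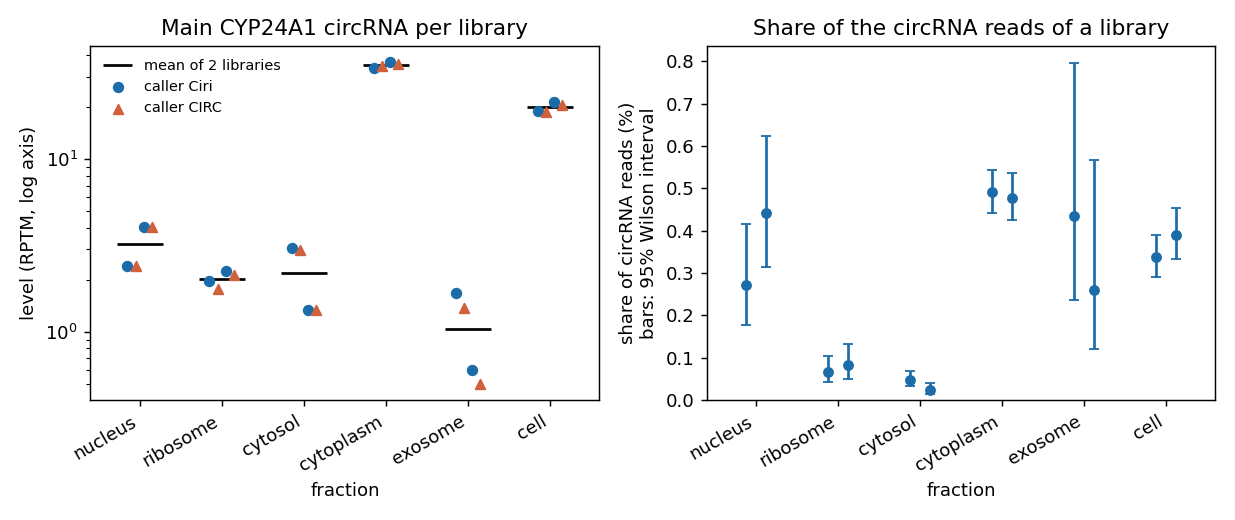
Main CYP24A1 circRNA in each library. The left panel gives its level in RPTM on a log axis for each caller, with a line at the mean of 2 libraries, and the right panel its share of all circRNA reads with 95% Wilson intervals. Levels lie near 35.2 RPTM in cytoplasm and 19.98 in cells and at 3.24 or less on average elsewhere, whereas by share only the ribosomal fraction and cytosol stand low.

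Among circRNAs that both callers listed in at least 1 table, the main CYP24A1 circRNA ranked 16 of 854 in the nucleus, 145 of 1847 in the ribosomal fraction, 328 of 2924 in the cytosol, 4 of 3732 in the cytoplasm, 40 of 360 in exosomes and 10 of 3100 in cells. The median of these circRNAs was between 0.363 and 0.568 RPTM in every fraction, so the CYP24A1 circRNA lay above the median in all 6. A junction has no length term, so these levels can be compared between genes.

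The fractions also differ in how much circRNA they hold, with 2301 to 72415 circRNA reads per library. As a share of those reads, the main circRNA made up 0.272% and 0.442% in the nuclear libraries. In the ribosomal libraries it made up 0.0656% and 0.0814%, and in the cytosolic libraries 0.0478% and 0.0235%. In the cytoplasmic libraries it made up 0.490% and 0.477%, the narrowest pair relative to its size.

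The exosomal shares were 0.434% and 0.261%, and the whole-cell shares 0.337% and 0.389%. By share, nucleus and exosomes therefore overlapped whole cells, and the ribosomal and cytosolic libraries lay below every library of the other 4 fractions. Their intervals did not reach those of the cytoplasm or cells: the highest upper bound was 0.132% in the ribosomal fraction and 0.0686% in the cytosol, against a lowest lower bound of 0.425% in the cytoplasm and 0.291% in cells. Intervals cover counting error only. The total behind these shares includes entries of either caller. Entries of the hepatocyte genes checked below, mainly ALB and FGG, held 1269 RPTM in cytoplasm, 1046 in cells and 889 in cytosol. Their sums were 0.311 RPTM in nucleus, 1.21 in the ribosomal fraction and 0.278 in exosomes. All circRNAs together had 5597 and 5357 RPTM in the cell libraries. Shares without these entries were not computed, so fold differences by share depend on them.

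The ribosomal fraction and cytosol are both parts of the cytoplasm, yet the circRNA was scarce in each of them and abundant in the cytoplasm. Its level was 17.4-fold lower in the ribosomal fraction and 16.1-fold lower in the cytosol than in the cytoplasm, or 6.58-fold and 13.6-fold lower by share of circRNA reads. Without cytosolic replicate 1 the cytosolic level was 26.2-fold lower, and without replicate 2 it was 11.7-fold lower. These differences were looked at because of their size and are given without a test.

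They were set beside the 109 circRNAs of both callers with at least 5 RPTM in the cytoplasm, a limit chosen after the data were seen. The CYP24A1 circRNA stood at 5.75% of its cytoplasmic level in the ribosomal fraction, where the median of the 109 was a ratio of 0.391 and no circRNA had a lower one. It stood at 6.19% in the cytosol, where the median ratio was 0.510 and 4 circRNAs were lower. The circRNA of CYP24A1 was the only one of the 109 below a ratio of 0.1 in both, while 2 were below it in the ribosomal fraction and 12 in the cytosol. The ratio of 0.1 was likewise not planned beforehand. With at least 10 RPTM (39 circRNAs) none was lower in either ratio, and with at least 2 RPTM (430 circRNAs) 29 were lower for the ribosomal fraction, all of them unlisted there, and 26 for the cytosol, 20 of them unlisted. Among the 430 the CYP24A1 circRNA was not alone below 0.1 in both, since a circRNA at 2.09 RPTM in the cytoplasm was unlisted in both fractions.

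The other circRNA below 0.1 in the ribosomal fraction and the 4 with a lower ratio in the cytosol were each below 0.1 in 1 of these fractions. That of CDC7, a kinase of DNA replication (chromosome 1, 91501654 to 91508397), had 0.393 ± 0.0440 RPTM in the ribosomal fraction, 0.781 ± 0.0186 in the cytosol and 6.24 ± 1.57 in the cytoplasm. That of GCN1, an activator of a translation-inhibiting kinase (chromosome 12, 120154970 to 120155719), had 1.94 ± 1.64 in the ribosomal fraction, 0.202 ± 0.0140 in the cytosol and 8.73 ± 0.851 in the cytoplasm. The circRNA of the centrosome gene CEP192 (chromosome 18, 12999421 to 13019206) stood at 14.6% of its cytoplasmic level in the ribosomal fraction and 3.92% in the cytosol. Those of the zinc finger gene ZNF516 (chromosome 18, 76441245 to 76443211) and of APLP2 (chromosome 11, 130109429 to 130110661), a relative of the amyloid precursor gene, stood at 49.2% and 23.4% in the ribosomal fraction. In the cytosol ZNF516 stood at 5.08%, and the table did not list APLP2.

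**Figure D3:**
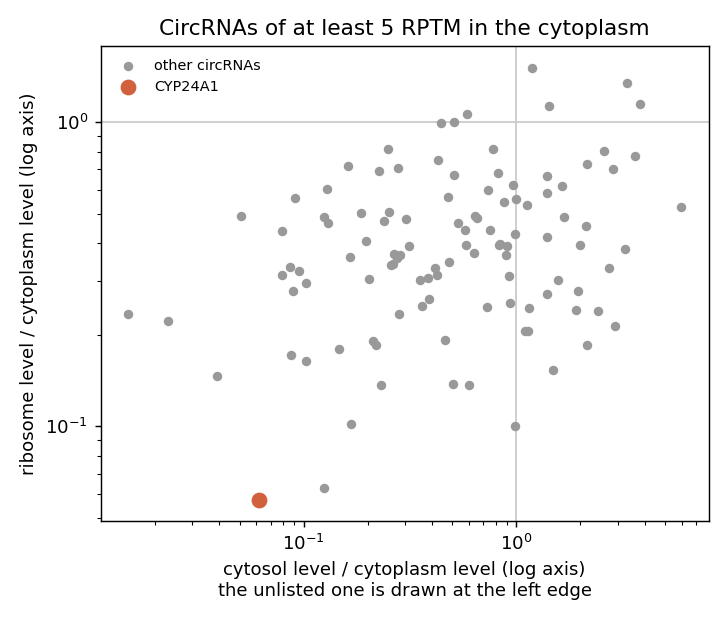
Ratio of the cytosolic to the cytoplasmic level against the ratio of the ribosomal to the cytoplasmic level, both on log axes, for the 109 circRNAs with at least 5 RPTM in the cytoplasm. The CYP24A1 circRNA lies at the bottom left, at 0.0619 and 0.0575, and the median circRNA at 0.510 and 0.391.

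The same scarcity held against whole cells, where the level was 9.87-fold lower in the ribosomal fraction and 9.16-fold lower in the cytosol (14.9-fold without cytosolic replicate 1). The average values in the tables of nucleus, cytoplasm and cells carry up to 10 decimals and those of ribosomal fraction, cytosol and exosomes 15. The tables therefore appear to have been written in 2 groups, and all 3 fractions of the second group were low per library reads. For levels set across these groups, a difference between fractions and a difference between the groups of tables cannot be told apart. By share of circRNA reads, the exosomes of the second group had 0.347 ± 0.123% and cells of the first 0.363 ± 0.0368%.

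Between the fractions that the design sets apart, fold changes came from 1 edgeR fit over the 12 libraries with TMM factors, a scale set by the circRNAs. The median log2 fold change was not 0 in every comparison. It was −0.76 for nucleus against cytoplasm and −5.17 for exosome against cell. Unlisted circRNAs entered as 0, and 42.7% of the 950 were unlisted in the nucleus and 63.4% in exosomes. With unlisted circRNAs at 1 read the medians were −0.09 and −0.01. Fold changes of the main circRNA are given as descriptions, since its levels chose the gene. In the nucleus against the cytoplasm its log2 fold change was −0.95 ± 0.30 (SE). Of the 950 circRNAs fitted 48.2% were called in either direction at an edgeR adjusted p under 0.05 and 33.3% lower, from which nothing is read for CYP24A1. Their median was −0.76, so the CYP24A1 circRNA lay near the middle, with 455 below it and 494 above. This order includes the circRNAs unlisted in the nucleus. Per library reads its nuclear level was 10.9-fold lower than the cytoplasmic one, and by share of circRNA reads 1.35-fold lower. The log2 fold change was −0.56 with RLE factors, −0.44 when scaled to total circRNA reads, −0.62 without nuclear replicate 1 and −3.45 with the library totals as the scale.

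In the ribosomal fraction against the cytosol, the main circRNA had 0.82 ± 0.39 on the log2 scale, where 52.7% of circRNAs were called in either direction. Per library reads both fractions had nearly the same mean, 2.02 and 2.18 RPTM, and with the library totals as the scale the fold change was −0.10. It was 1.26 without cytosolic replicate 1 and 1.02 when scaled to total circRNA reads. The sign thus differed between the library totals and the scales set by circRNAs.

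In exosomes against whole cells, the main circRNA had −1.86 ± 0.38 on the log2 scale. The median of the 950 was −5.17, with 586 circRNAs below the CYP24A1 one and 363 above it. This order includes the 602 circRNAs unlisted in exosomes and entered as 0, so it mainly sets a listed circRNA beside unlisted ones. Per library reads its ratio of exosomes to cells was 0.0518. Of the 71 circRNAs of both callers with at least 5 RPTM in cells, 13 had a lower ratio and 57 a higher one (median 0.107). In this comparison 46.0% of the 950 were called in either direction and 42.0% lower, and 63.4% were not listed in exosomes at all. Per library reads the exosomal level was 19.3-fold lower. By share of circRNA reads it was 1.04-fold lower, and scaled to total circRNA reads the log2 fold change was −0.060. Both values rest on a total that includes the ALB entry in cells, which was unlisted in exosomes. The exosomal libraries had TMM factors of 1.93 and 2.25, against 0.769 to 0.925 in the other libraries. Without exosomal replicate 1 the level was 36.4-fold lower, and the fold change was −2.30. The absence of ribosomal RNA removal in exosomal samples gives their library reads another composition, and its part in the level was not tested.

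The cytoplasm against whole cells gave 0.52 ± 0.25 on the log2 scale for the main circRNA. Of all circRNAs 3.79% were called in either direction, 1.58% higher and 2.21% lower. Cytoplasmic levels were 1.76 times those of cells, with no overlap of the libraries. Of the 71 circRNAs of both callers with at least 5 RPTM in cells, 4 had a higher ratio of cytoplasm to cells, and their median ratio was 1.27.

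**Figure D4:**
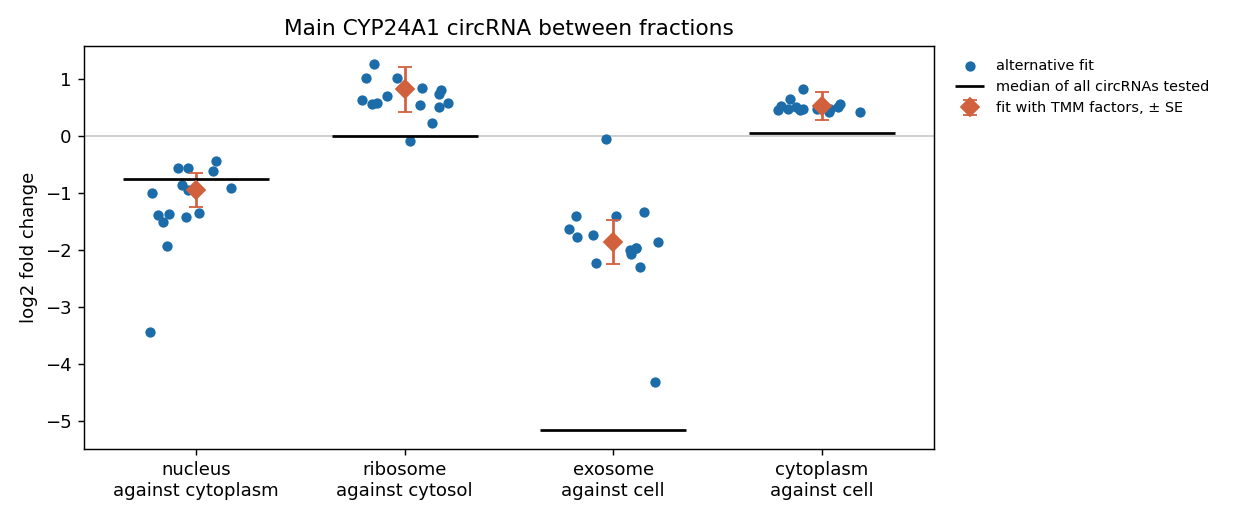
Log2 fold changes of the main CYP24A1 circRNA in 4 comparisons. Diamonds give the fit with TMM factors with its standard error, circles the alternative fits, and black lines the median of the 950 circRNAs tested. All alternatives lie below 0 for nucleus against cytoplasm and exosome against cell and above 0 for cytoplasm against cell, and 1 of 15 turns the sign for ribosome against cytosol.

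Few circRNAs had a like pattern. Over the 12 libraries, the smallest mean absolute differences of centred log2 CPM from the main CYP24A1 circRNA were 0.502 for TRIM24, 0.534 for CEP192, 0.557 for ARHGAP12, 0.572 for PVT1 and 0.593 for NUP205, and the median of 949 circRNAs was 1.41. The TRIM24 circRNA (chromosome 7, 138504290 to 138538803), from a gene for a cofactor of nuclear receptors, had 0.418 ± 0.00744 RPTM in the ribosomal fraction, 0.630 ± 0.00806 in the cytosol and 3.79 ± 0.660 in the cytoplasm. Of the 5, the ARHGAP12 circRNA (chromosome 10, 31908172 to 31910563), from a gene for a GTPase activating protein, was as abundant as that of CYP24A1. It had 3.23 ± 0.822 RPTM in the nucleus, 6.23 ± 0.617 in the ribosomal fraction, 3.91 ± 1.05 in the cytosol, 38.0 ± 1.78 in the cytoplasm, 2.85 ± 1.35 in exosomes and 28.6 ± 3.81 in cells. The entry of the noncoding gene PVT1 (chromosome 8, 127890589 to 127890998) stood at 33.4% of its cytoplasmic level in the ribosomal fraction and 8.63% in the cytosol. Those of CEP192 (chromosome 18, 12999421 to 13030608, with another end than the CEP192 circRNA above) and of the nucleoporin gene NUP205 (chromosome 7, 135577796 to 135593192) were at 2.09 ± 0.838 and 1.99 ± 0.195 RPTM in the cytoplasm. Both were unlisted in ribosomal fraction, cytosol and exosomes, and that of NUP205 also in the nucleus. Their likeness therefore rests partly on unlisted values entered as 0.

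By mean level over the 6 fractions the CYP24A1 circRNA ranked 16 of 950 with 10.6 RPTM, between a pair of circRNAs of FAM169A. The FAM169A circRNA just above it (chromosome 5, 74813840 to 74841679) had 8.42 ± 0.372 RPTM in the ribosomal fraction, 2.13 ± 0.290 in the cytosol and 26.9 ± 1.02 in the cytoplasm. The one just below it (chromosome 5, 74834426 to 74841679) had 12.7 ± 0.719, 2.70 ± 0.294 and 21.0 ± 0.873 in the same order. Both were thus as scarce as the CYP24A1 circRNA in the cytosol but held more than its 2.02 RPTM in the ribosomal fraction.

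Other genes of the vitamin D pathway had circRNAs of lower level. Of 24 such genes besides CYP24A1, 9 had at least 1 circRNA, 45 in all, and 18 of these were listed by both callers. Among all protein-coding genes 19.9% had an entry, and 4679 of all 11227 circRNAs were listed by both callers. These shares were not compared by a test. The CYP24A1 circRNA reached 35.2 RPTM in the cytoplasm. The highest level of the 45 in any fraction was 3.75 ± 0.809 RPTM, for a circRNA of BAZ1B in the cytosol. The hosts were the receptor partner RXRA, the coactivators NCOA1, NCOA2, NCOA3 and MED1, the corepressor NCOR1, the chromatin remodelling genes BAZ1B and SMARCA4, and PDIA3, a protein disulfide isomerase. No entry lay in VDR, in GC, the vitamin D carrier of plasma, or in CYP2R1, CYP27A1 or CYP27B1, the genes of vitamin D activation. The main CYP24A1 circRNA alone was above the sum over these circRNAs in the nucleus (0.829 RPTM), cytoplasm (18.9), exosomes (0.176) and cells (10.9), and below it in the ribosomal fraction (6.33) and cytosol (16.4).

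Among these circRNAs, 6 from 4 genes had enough reads to be tested. In the nucleus against the cytoplasm 3 were lower and none higher in edgeR, those of NCOA3, BAZ1B and NCOA2, and all 3 were unlisted in the nucleus, where 42.7% of the 950 were unlisted and 33.3% were called lower. In the ribosomal fraction against the cytosol 1 was higher and 1 lower, where 26.6% and 26.1% of all were called. A circRNA of NCOA2 (chromosome 8, 70159505 to 70162854) had 1.61 ± 0.280 RPTM in the ribosomal fraction and 1.24 ± 0.627 in the cytosol. Its log2 fold change in the fit with TMM factors was 1.20 ± 0.48 (edgeR adjusted p = 0.0337). This is larger than the RPTM means, scaled to library reads, would give, and other scales were not tried for it here. A circRNA of BAZ1B (chromosome 7, 73459536 to 73470483) had 0.432 ± 0.411 and 2.95 ± 0.579, with −1.76 ± 0.55 (edgeR adjusted p = 0.00784). In exosomes against cells 5 were lower, all of them unlisted in exosomes, where 42.0% of the 950 were called lower and 63.4% were unlisted. In the cytoplasm against cells none of the 6 passed, where 3.79% of all were called. Their median log2 fold change was −0.50 in the ribosomal fraction against the cytosol and 0.50 in the cytoplasm against cells, beside 0 and 0.06 over all 950.

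**Figure D5:**
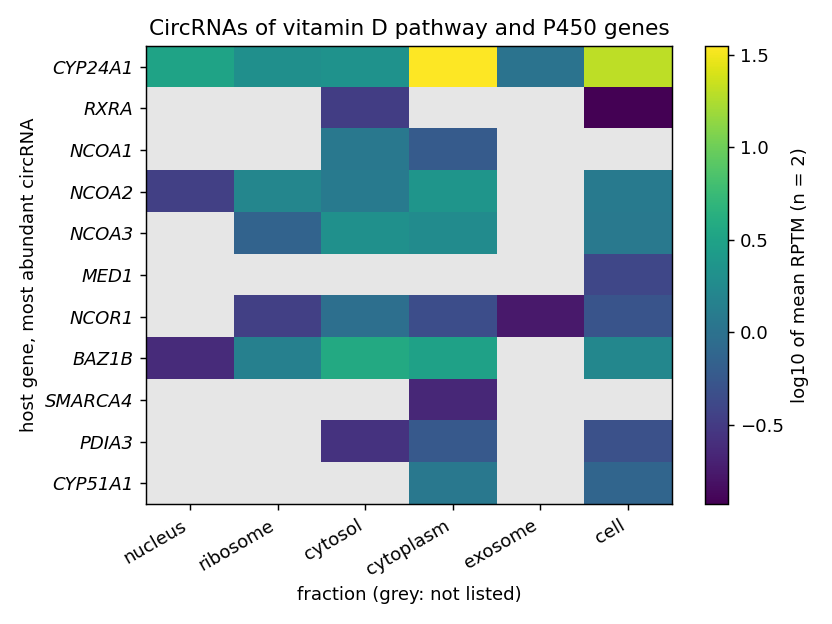
Mean level of the most abundant circRNA of each vitamin D pathway gene reported here with an entry, and of CYP51A1, by fraction, as log10 of RPTM (n = 2). Grey cells are not listed, and the row of CYP24A1 is the only one with a value in all 6 fractions.

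Of 56 protein-coding cytochrome P450 genes in the RefSeq table, CYP24A1 and CYP51A1 had an entry, a share of 3.57%, beside 19.9% of all 20052 protein-coding genes in the table. The difference was not tested. CYP51A1, a demethylase of sterol synthesis, had 2 circRNAs, and the more abundant (chromosome 7, 92123120 to 92131872) had 1.16 ± 0.201 RPTM in the cytoplasm and 0.761 ± 0.434 in cells. It was unlisted in the other fractions. Of 22 other RefSeq genes within 1 Mb of CYP24A1, the one with an entry was its neighbour PFDN4, a prefoldin subunit gene, with 0.112 ± 0.0220 RPTM in the cytoplasm alone.

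The liver label was checked on circRNA hosts. Of 13 hepatocyte genes 5 had entries, ALB, APOB, APOH, FGA and FGG, beside 19.9% of all protein-coding genes. ALB reached 1258 ± 61.0 RPTM in the cytoplasm through an entry of Ciri alone. That ALB entry was unlisted outside cytoplasm and cells, and the FGG entry stood at 888 RPTM in the cytosol and was unlisted elsewhere; the liver check rests partly on such entries. No entry lay in 7 genes of blood, vessel and connective tissue cells or in 6 kidney tubule genes, among them the tubule receptors LRP2 and CUBN and the kidney protein gene UMOD. A gene without a listed circRNA can still be expressed as linear RNA, which the tables do not measure.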

How the data were processed

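The deposited tables give, per the file headers, junction read counts of each circRNA by caller and library, with RPTM values computed by the authors, on hg38 per the submitters' processing notes. Aligner, caller versions and filters: not given in the sources used here. RPTM is read here as reads per 10000000 library reads: each caller's value was an exact linear function of its 2 counts, which implied library totals of 65.6 to 104.1 M reads. The 6 tables were joined on chromosome, start and end. Where both callers had an entry their reads were averaged, and values were rounded for the tests. An unlisted circRNA entered as 0, which is not a measured 0.

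Counts were tested with edgeR 4.0.16 in R 4.3.3 (quasi-likelihood, TMM factors, filterByExpr minimum count 10, Benjamini-Hochberg adjustment over all circRNAs tested, threshold 0.05). The fit held the 950 of 4679 circRNAs listed by both callers in at least 1 table that passed the filter, with 1 coefficient per fraction. The SE is the absolute fold change over the square root of F. On simulated counts with known changes in the nucleus the fit called few unchanged circRNAs, but it missed many that were lowered. TMM factors left unchanged ones slightly low. The simulated fractions otherwise shared the same levels, with a fixed dispersion and no listing rule. How often the fit calls unchanged circRNAs in the deposited counts was therefore not tested. The p-values of the main CYP24A1 circRNA are not used, since its levels chose the gene. Alternatives were RLE factors, other library sizes, DESeq2 1.42.0, other filters, each caller alone, unlisted circRNAs at 1 read, a replicate block and each replicate left out. Named circRNAs were all CYP24A1 entries, the 5 with the most alike pattern, the neighbours in level and the leading circRNA of each listed host. Others were named after their values were seen. The members and lists were chosen with earlier results of these data known. Hosts come from spans in the RefSeq table, without strand. Of the vitamin D list, 1 gene is not reported here, and the counts and sums of that list leave it out.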

Additional observations from a re-analysis of the deposited data

How the results depend on the processing

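Leaving out 1 replicate gave log2 fold changes of the main circRNA from −1.36 to −0.62 for nucleus against cytoplasm, 0.51 to 1.26 for ribosome against cytosol, −2.30 to −1.74 for exosome against cell and 0.41 to 0.64 for cytoplasm against cell. Nucleus against cytoplasm was −0.56 with RLE factors, −0.44 with total circRNA reads as the scale, −0.56 with DESeq2 and −0.86 with unlisted circRNAs at 1 read. Exosome against cell was −0.060 with total circRNA reads and −1.33 with unlisted circRNAs at 1 read. Ribosome against cytosol was 1.02 with total circRNA reads and turned to −0.10 with the library totals. The causes were not tested. Counting entries of both callers only leaves out the second circRNA, which Ciri alone listed. The main circRNA then holds 100% of CYP24A1 reads in cells and cytoplasm by definition, which is no check on its share. Levels by either caller alone stayed within 1 SD in all 6 fractions. With the replicate number as a block the 4 fold changes were −0.96, 0.81, −1.85 and 0.53. Same-numbered libraries of different fractions did not deviate together (15 correlations between −0.0621 and 0.0829 across 950 circRNAs), so the numbers were not taken as pairs.

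The background moved with the scale. For nucleus against cytoplasm, 142 circRNAs were higher and 316 lower with TMM, 181 and 233 with RLE, 198 and 215 with total circRNA reads and 24 and 771 with the library totals. The medians were −0.76, −0.37, −0.25 and −3.18. For ribosome against cytosol, 253 were higher and 248 lower with TMM, and 134 and 382 with the library totals (medians 0 and −0.71). For exosome against cell the splits were 38 and 399 with TMM, 46 and 188 with RLE, 149 and 11 with total circRNA reads and 11 and 841 with the library totals, and for cytoplasm against cell 15 and 21 with TMM and 21 and 18 with the library totals. DESeq2 called 106, 262, 63 and 5 in the 4 comparisons, against 458, 501, 437 and 36 with edgeR. Without a filter 829, 1832 and 1206 were called for nucleus, ribosome and cytoplasm, and with a minimum of 5 reads in 2 libraries 805, 1365 and 344. With all circRNAs of either caller, 790 were called for the nucleus and 117 for the cytoplasm. Unlisted circRNAs at 1 read left 161 for the nucleus, 26 for exosomes and 9 for the cytoplasm, and the caller headed CIRC alone gave 72 for the cytoplasm. Without a nuclear replicate 98 and 141 were called, without an exosomal one 54 and 94, and without 1 replicate of cytoplasm or cells 10 to 14 for the cytoplasm. Exosomal values rest on 10 and 5.5 reads.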
